A study of Arabidopsis thaliana with 24 samples.

Results

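The ozone response of the Arabidopsis thaliana line CT101 was compared with that of the accession C24. The quantity is a difference of differences, CT101 under ozone minus CT101 control, less C24 under ozone minus C24 control, and is called the response difference here. It used 12 of the 24 libraries of the series, 3 in each of 4 groups, and was fitted for the 20554 of 32678 loci that passed a filter on low counts. Plants of both lines were 3 weeks old, and whole rosettes were collected either from untreated plants (control) or from plants given 350 ppb ozone for 2 h. Per the labels each library came from a pool of 10 to 15 rosettes and the 3 libraries of a group were biological replicates. The labels describe C24 as an accession and give no origin for CT101. They also do not state the interval between exposure and sampling. The other lines, Te and Col-0, entered the estimate of the spread.

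Ozone enters leaves through the stomata and breaks down in the cell wall space to reactive oxygen species. Plants read these partly as they read a pathogen, with an oxidative burst made by their own NADPH oxidases, calcium and MAP kinase signalling, and synthesis of salicylic acid, ethylene and jasmonate. In sensitive plants the response ends in patches of dead cells, and salicylic acid and ethylene are known to promote this cell death while jasmonate is known to contain it.

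Total counts of the 12 libraries ranged from 13925869 to 23075196. The library with the fewest counts, ozone replicate 2 of C24, also stood apart from its group. On the first principal component, which carried 65.4% of the variance and set ozone apart from control, it lay at 31.2, while the other C24 ozone libraries lay at 86.9 and 101. The CT101 ozone libraries lay at 106, 86.7 and 124, the C24 controls between -68.4 and -61.7 and the CT101 controls between -131 and -102. Results are therefore also given without this library. Ozone replicate 2 was also the lowest of the CT101 ozone libraries on the first component, so this omission treats the lines unequally. Equally numbered libraries of equal treatment deviated together in C24 and CT101 (correlations of residuals from 0.182 to 0.466), so a fit with the replicate number as a block within each treatment, termed the blocked fit, is given where it moves a result. The label is "whole rosette". RBCS1A, a gene of the small subunit of Rubisco, stood at 13070 to 17124 counts scaled to library size (CPM) in C24 controls and 18088 to 19683 in CT101 controls. Such levels cannot tell a whole rosette from other green tissue. Of 6 root markers 2 passed the filter and of 8 flower and seed markers 1 did, and the response difference of none of these passed the test. In the blocked fit the flower marker AG was called lower (median of the list -2.39), at or below 1.04 CPM in the 12 libraries. In such bulk samples fewer cells of a type and less RNA per cell cannot be told apart.

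The response to ozone was larger in CT101. Genes with an adjusted p under 0.05 are termed called, and 1995 genes (9.71% of those tested) had a called response difference. It was higher in CT101 for 1458 genes (7.09%), of which 906 differed by at least 2-fold, and lower for 537 (2.61%), of which 212 did. Of all calls 73.1% were higher, while the median response difference of all genes tested was 0.00 on the log2 scale. Without ozone replicate 2 of C24 the calls were 831 higher and 194 lower, and in the blocked fit 3336 higher and 2675 lower. Leaving out ozone replicate 2 of every line gave 1870 and 867. Leaving it out of C24 and CT101, a setting added after the data were seen, gave 1539 and 414. The 1458 and 537 calls all kept their direction in each of these fits. They were selected in libraries that these fits share, so a kept direction is no separate evidence. A fit of the 12 libraries alone called 474 higher and 210 lower, and it kept 52 of the 78 calls among the genes chosen by rule to be named. Where this fit is not mentioned for a gene below, its call may not have held there.

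The ozone responses themselves were called for 13424 genes in CT101 (65.3%) and 9825 in C24 (47.8%). Over the 16663 genes whose mean log2 CPM was 1 or more, the median absolute log2 change was 0.676 in CT101 and 0.419 in C24. It was also larger in CT101 within each replicate number, at 0.736 against 0.466, 0.558 against 0.259 and 0.693 against 0.525 for replicates 1, 2 and 3. The medians were 0.678 in CT101 and 0.493 in C24 without ozone replicate 2 of C24. Genes that moved by at least 2-fold numbered 5734 in CT101 and 2974 in C24.

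**Figure D1:**
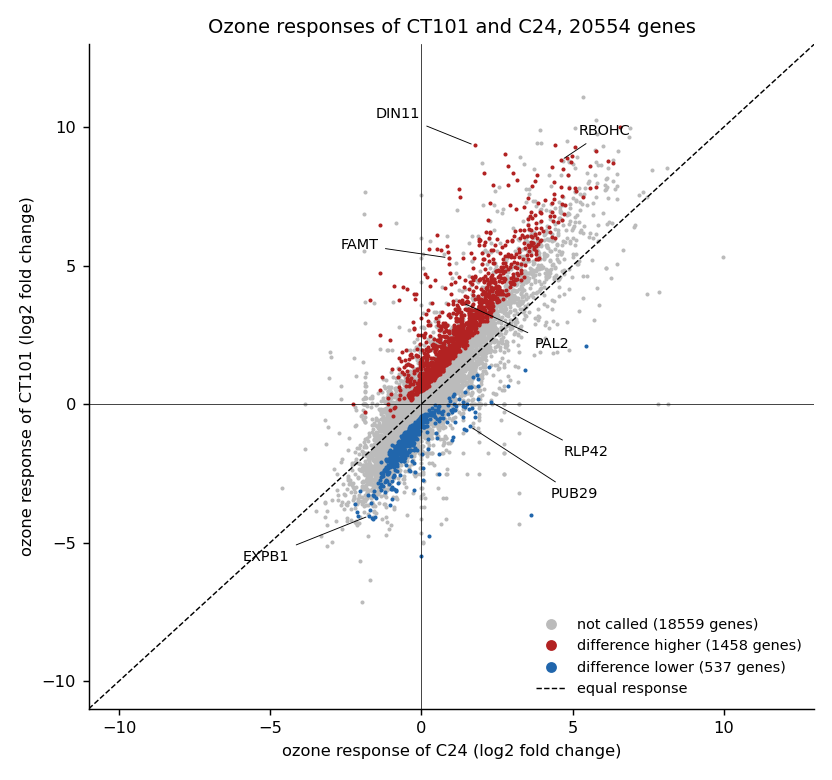
Each point is 1 of 20554 genes, placed by its fitted log2 ozone response in C24 (horizontal) and CT101 (vertical), with the dashed line at equal responses. The 1458 genes called higher (red) lie above the line mostly where both responses are positive, and the 537 called lower (blue) lie below it mostly where both are negative.

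Most of these genes moved the same way in both lines and further in CT101. Of the 1458 higher calls, 1119 (76.7%) rose in both lines, with a median log2 change of 2.62 in CT101 and 1.33 in C24. Another 308 (21.1%) rose in CT101 and were not called in C24, 19 fell in C24 and were not called in CT101, and 10 rose in CT101 and fell in C24. Of the 537 lower calls, 306 (57.0%) fell in both, with medians of -1.68 in CT101 and -0.72 in C24, and 164 (30.5%) fell in CT101 and were not called in C24. A further 36 rose in C24 and were not called in CT101, and 18 rose in C24 and fell in CT101. Without ozone replicate 2 of C24, 603 of 831 higher calls (72.6%) rose in both lines and 56 of 194 lower calls (28.9%) fell in both. In the blocked fit 2690 of 3336 higher calls (80.6%) rose in both and 2109 of 2675 lower calls (78.8%) fell in both.

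Read the other way, as CT101 minus C24 at equal treatment, the lines were called different under ozone for some genes and in the controls for others. Within controls 3409 genes differed between the lines (16.6%), with 6.18% of genes higher and 10.4% lower in CT101. Under ozone 5640 did (27.4%), 13.9% higher and 13.6% lower. Of the 1458 higher calls, 849 (58.2%) were higher in CT101 under ozone and not called in controls. Another 359 (24.6%) were lower in CT101 controls and not called under ozone, and 99 (6.79%) were lower in CT101 controls and higher under ozone. Of the 537 lower calls, 324 (60.3%) were lower in CT101 under ozone and not called in controls. Another 108 (20.1%) were higher in CT101 controls and not called under ozone. In neither treatment were 95 of the higher and 53 of the lower calls called, and a gene not called may still differ. These contrasts share their libraries with the response difference, so the shares describe it and are no separate evidence.

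**Figure D2:**
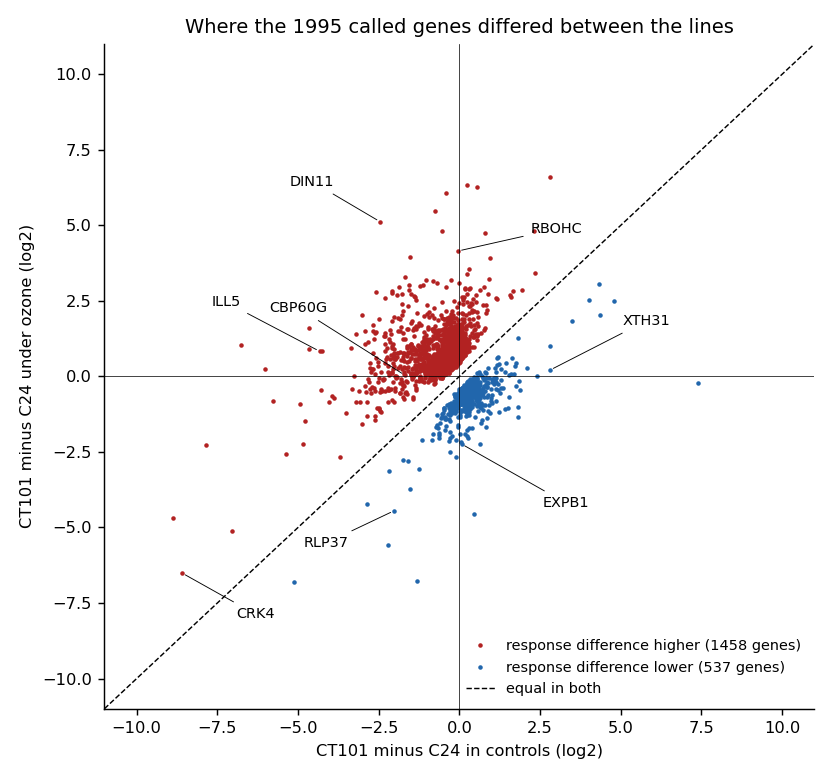
Each point is 1 of the 1995 called genes, placed by CT101 minus C24 in controls (horizontal) and under ozone (vertical), both log2. RBOHC lies near 0 on the horizontal axis and at 4.15 on the vertical axis, CBP60G at -1.69 and 0.04, and XTH31 at 2.81 and 0.21.

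The 12 genes with the largest higher difference, among called genes whose mean log2 CPM was 1 or more, spanned log2 values of 4.38 to 7.58. That mean is over all 12 libraries, so a gene near 0 elsewhere can pass through its CT101 ozone libraries alone. The ranking therefore favours such genes. DIN11 (AT3G49620), a dark-inducible oxygenase, stood at 4.25, 0.939 and 0.522 CPM in C24 controls and 4.25, 1.66 and 12.8 under ozone. In CT101 levels were 0.0444, 0.671 and 0.297 CPM in controls and 105, 298 and 255 under ozone. The C24 groups overlapped, and every CT101 ozone library was above all others. Its response difference was 7.58 ± 1.17 (log2, SE, n = 3 per group; adjusted p = 9.1e-04).

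AT4G11170, of the TIR-NBS-LRR class of disease resistance proteins, stood at 3.26, 4.65 and 4.49 CPM in C24 controls and 68.7, 30.8 and 77.8 under ozone. CT101 had 0.0444, 0.623 and 0.991 CPM in controls and 133, 133 and 236 under ozone. It was lower than C24 before and higher after exposure with no overlap, and its response difference was 4.43 ± 0.79 (adjusted p = 0.0027). AT1G57650, annotated as an ATP binding protein, was at 0.698 to 1.63 CPM in C24 controls, 1.8 to 3.96 in C24 ozone, 0.178 to 1.82 in CT101 controls and 155 to 289 in CT101 ozone libraries (difference 6.49 ± 0.81, adjusted p = 1.9e-04). AT1G57630, a TIR domain protein, lies in the same 1 Mb of chromosome 1 and had a difference of 6.22 ± 1.37 (adjusted p = 0.01, or 0.062 without C24 control replicate 2). It averaged 0.546 CPM in C24 controls, 1.31 in C24 ozone, 0.336 in CT101 controls and 60.6 in CT101 ozone libraries. Outside CT101 ozone its difference rests on few reads.

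FAMT (AT3G44860), which methylates farnesoic acid, stood at 34.7, 58.4 and 22.6 CPM in C24 controls and 69, 54.7 and 91.6 under ozone. Levels in CT101 were 2.4, 10.3 and 5.5 CPM in controls and 124, 267 and 315 under ozone. CT101 was thus below C24 in every control library and above it in every ozone library (difference 4.38 ± 0.66, adjusted p = 7.8e-04). ARI12 (AT1G05880), a RING-type ubiquitin ligase gene, stood at 2.97, 3.21 and 2.09 CPM in C24 controls, 20.7, 8.71 and 30.4 in C24 ozone, 0, 0.384 and 0.644 in CT101 controls and 76.6, 74.1 and 95.4 in CT101 ozone libraries. It had the same order of groups as FAMT, with a difference of 5.06 ± 0.84 (adjusted p = 0.0016). AT2G31730, a bHLH protein gene, rose by 4.22 in CT101 and was not called in C24 (-0.62, adjusted p = 0.1), with a difference of 4.84 ± 0.44 (adjusted p = 1.2e-05). NATA1, an acetyltransferase of ornithine, rose by 3.75 in CT101 and was not called in C24 (-0.74, adjusted p = 0.28; difference 4.50 ± 0.81, adjusted p = 0.0028). ILL5, of the family of IAA-amino acid hydrolases, stood at 29.2, 36.2 and 1.72 CPM in C24 controls and 0.933, 1.68 and 0.694 in CT101 controls, C24 control replicate 3 lying near the CT101 level. Under ozone it stood at 9.61 to 16.2 CPM in C24 and 18 to 26.9 in CT101. The lines differed in controls (-4.33, adjusted p = 1.1e-04) and were not called under ozone (0.83, adjusted p = 0.27), and the response difference was 5.17 ± 0.87 (adjusted p = 0.0018).

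The 12 genes with the largest lower difference spanned -2.61 to -2.22. XTH31 (AT3G44990), an enzyme that remodels wall xyloglucan, stood at 26.3, 11.5 and 18.3 CPM in C24 controls and 11.5, 9.44 and 6.14 under ozone. In CT101 it stood at 152, 100 and 141 CPM in controls and 10.3, 9.91 and 11.1 under ozone. The lines differed before exposure and overlapped after it, and the response difference was -2.61 ± 0.52 (adjusted p = 0.0057). EXPB1, an expansin that loosens walls, overlapped in controls (8.11 to 15.2 CPM in C24, 10.1 to 13.9 in CT101) and was lower in CT101 under ozone (1.98 to 4.39 against 0.247 to 1.48; difference -2.31 ± 0.68, adjusted p = 0.038). The ammonium transporter gene AMT1;2 showed the same order, at 4.86 to 15.2 CPM in C24 ozone and 0.968 to 2.4 in CT101 ozone libraries (difference -2.57 ± 0.67, adjusted p = 0.023). Without ozone replicate 2 of C24 both of these calls ended (adjusted p = 0.094 and 0.088). They also ended without C24 control replicate 2, CT101 control replicate 1, or CT101 ozone replicates 1 or 3, and that of EXPB1 without C24 control replicate 3, C24 ozone replicate 1 or CT101 control replicates 2 or 3. The EXPB1 call also ended with the 12 libraries alone (adjusted p = 0.057). The largest adjusted p over all alternatives was 0.13 for EXPB1 and 0.088 for AMT1;2.

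A few genes rose in C24 and either fell or were not called in CT101. PUB29 (AT3G18710), a U-box ubiquitin ligase gene, stood at 4.02, 3.81 and 3.29 CPM in C24 controls and 11.9, 8.31 and 13.5 under ozone, but at 9.68, 8.34 and 7.83 in CT101 controls and 4.84, 5.6 and 4.39 under ozone. It rose by 1.60 in C24 (log2) and fell by 0.80 in CT101, with a difference of -2.41 ± 0.39 (adjusted p = 0.0013). The receptor-like protein gene RLP42, which is known for recognising fungal polygalacturonases, stood at 10, 6.97 and 6.69 CPM in C24 controls and 43.3, 26.7 and 46 under ozone, against 16.6, 20.2 and 32 in CT101 controls and 24.1, 25.7 and 22.2 under ozone. It rose in C24 (2.30) and was not called in CT101 (0.07, adjusted p = 0.81; difference -2.23 ± 0.33, adjusted p = 7.3e-04). In the reference, 37.0% of the 50-base stretches of RLP42 occur elsewhere in the genome, so its reads may be split with near copies. AT3G45390, a lectin-domain receptor kinase gene, rose by 1.03 in C24 and fell in CT101 (adjusted p = 0.0016, difference -2.22 ± 0.38, adjusted p = 0.0018). RLP37 did the same (1.48 in C24, -0.94 in CT101, difference -2.42 ± 0.43, adjusted p = 0.0024), with another locus on the opposite strand at its position and no strand setting stated for the counts.

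**Figure D3:**
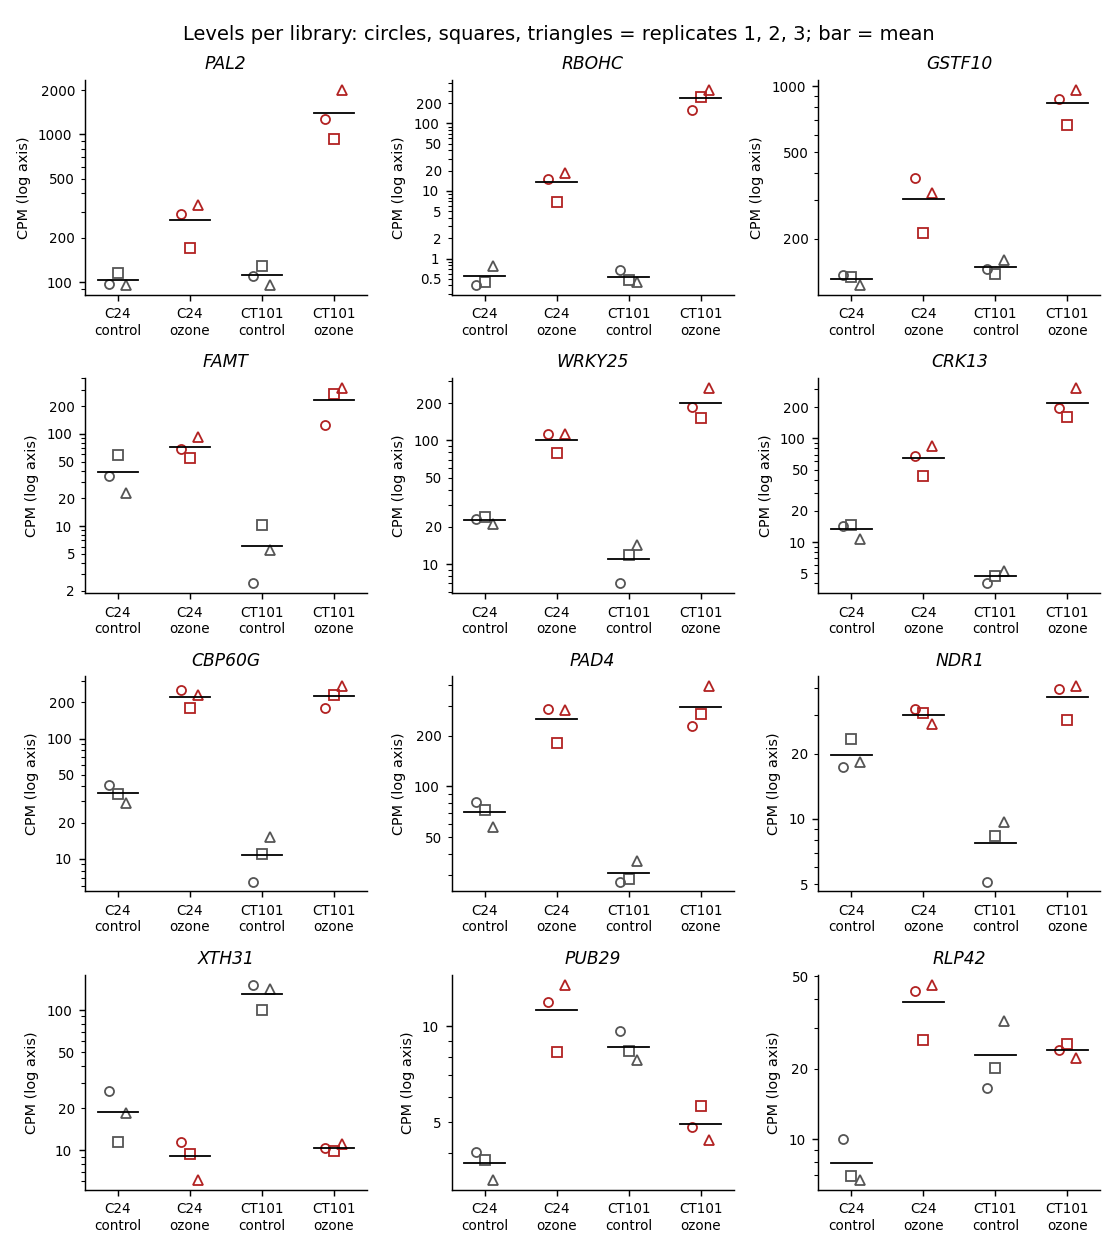
Levels of 12 genes in each of the 12 libraries, as CPM on a log axis, with controls in grey, ozone in red and the mean of each group as a bar. PAL2, RBOHC and GSTF10 differed between the lines after exposure, CBP60G, PAD4 and NDR1 before it, FAMT, WRKY25 and CRK13 in both with opposite sign, and PUB29 rose in C24 and fell in CT101.

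Promoters of 4 of these genes are shown as examples because WRKY transcription factors, described further on, bind the W-box. They were chosen after the values were seen. Each line gives the 250 bases before the annotated start on TAIR10, 5′ to 3′ on the gene's strand, and capitals mark the W-box core TTGAC on either strand (GTCAA on the other). The sequence is that of the Col-0 reference and not of C24 or CT101. ARI12 lies at chr1:1775393-1775642 on the plus strand, FAMT at chr3:16379383-16379632 on the plus strand, PAL2, which encodes a phenylalanine ammonia-lyase, at chr3:19746781-19747030 on the minus strand, and PUB29 at chr3:6435562-6435811 on the minus strand.
ARI12: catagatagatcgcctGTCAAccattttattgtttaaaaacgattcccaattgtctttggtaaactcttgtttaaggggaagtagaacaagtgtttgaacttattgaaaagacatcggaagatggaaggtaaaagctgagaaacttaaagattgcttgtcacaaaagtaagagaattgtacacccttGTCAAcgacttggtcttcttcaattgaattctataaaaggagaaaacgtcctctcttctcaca
FAMT: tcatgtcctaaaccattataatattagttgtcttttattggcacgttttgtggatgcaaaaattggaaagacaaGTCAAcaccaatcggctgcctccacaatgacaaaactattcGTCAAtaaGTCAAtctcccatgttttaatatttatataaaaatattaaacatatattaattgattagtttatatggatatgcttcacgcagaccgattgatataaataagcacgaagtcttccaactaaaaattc
PAL2: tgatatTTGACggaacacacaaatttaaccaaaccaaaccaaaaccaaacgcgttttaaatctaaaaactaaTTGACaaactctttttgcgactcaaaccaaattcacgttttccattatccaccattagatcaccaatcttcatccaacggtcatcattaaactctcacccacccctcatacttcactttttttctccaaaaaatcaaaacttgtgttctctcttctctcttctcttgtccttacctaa
PUB29: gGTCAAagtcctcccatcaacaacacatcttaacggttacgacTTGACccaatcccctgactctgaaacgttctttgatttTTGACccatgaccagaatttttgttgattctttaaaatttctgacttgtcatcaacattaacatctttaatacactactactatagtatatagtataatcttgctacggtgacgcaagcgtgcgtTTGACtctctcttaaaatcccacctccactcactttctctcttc
The core occurs 2, 3, 2 and 4 times in these windows, PUB29, with a lower response difference, having the most. These examples are not typical, as 22.4% of the higher and 14.3% of the lower calls held at least 2 copies. In the windows of DIN11, AT1G57650, AT1G57630, RBOHC and CBP60G, which are not shown, the core occurs 0 times.

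Over all genes, the W-box core TTGAC was found on either strand in 57.0% of the 250-base promoters of the 1458 higher calls, 43.8% of the 537 lower calls and 44.9% of 20553 genes tested. Windows with at least 2 copies made up 22.4%, 14.3% and 14.1%. The GCC box GCCGCC, bound by ethylene response factors, was in 3.77%, 1.68% and 2.35%, and the as-1 core TGACG, bound by TGA factors, in 25.2%, 24% and 21.7%. TGACG can overlap TTGAC by 4 bases. The G-box CACGTG (8.98%, 9.87% and 8.73%), the auxin element TGTCTC (10.8%, 11.9% and 12.0%) and the evening element AAATATCT (4.66%, 4.84% and 4.6%) differed by less than 2 percentage points between the sets. These shares are descriptions without a test, and a match of letters does not show that a factor binds. No share was taken for genes that ozone raised without a called response difference. Whether the 57.0% belongs to the response difference or to genes raised by ozone in general was not tested.

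Genes of pathways that ozone is known to engage were read as 22 lists, whose members were chosen with earlier results of these data known. Lists are described by their counts of called members and median response difference, beside 7.09% called higher, 2.61% called lower and a median of 0.00 for all genes. Of the 1458 higher calls 1437 (98.6%) rose in CT101, and of the 537 lower calls 488 (90.9%) fell there. A list of genes that ozone raises or lowers can depart from the values of all genes for that reason alone. Shares among the genes that ozone moved were not set beside the lists.

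**Figure D4:**
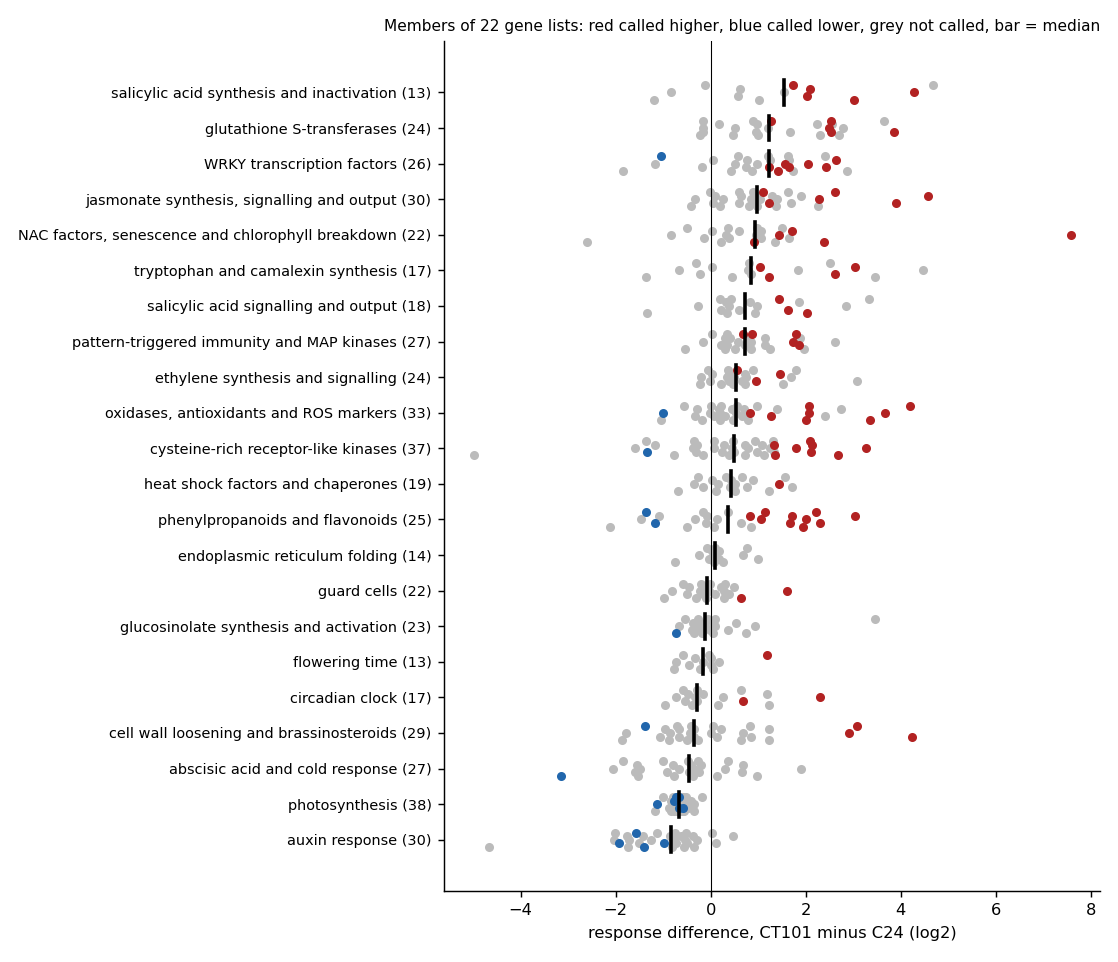
Response difference (log2) of the members of 22 lists, 1 point per tested member, with the list's median as a bar and the number of tested members in brackets. Medians ran from -0.83 for auxin response to 1.54 for salicylic acid synthesis, and most members of every list were not called.

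Salicylic acid is made in ozone-treated leaves from isochorismate. Of 13 genes of its synthesis and inactivation 5 were called higher and 0 lower, with a median of 1.54. EDS5 (AT4G39030), which exports the precursor from the chloroplast, stood at 20.7, 28.2 and 20 CPM in C24 controls and 226, 109 and 328 under ozone. In CT101 levels were 5.42, 11.3 and 10.7 CPM in controls and 511, 654 and 964 under ozone. Neither treatment overlapped between the lines (difference 3.01 ± 0.63, adjusted p = 0.0074). EDS5 has an overlapping locus. The transcription factor gene CBP60G (AT5G26920), an activator of the isochorismate synthase gene, stood at 41.3, 34.7 and 29 CPM in C24 controls and 254, 179 and 228 under ozone, and at 6.48, 10.9 and 15.2 in CT101 controls and 181, 229 and 272 under ozone. Here the lines were called different in controls and not under ozone, and the response difference was 1.73 ± 0.48 (adjusted p = 0.03). PBS3, which conjugates isochorismate to glutamate, had a response 4.28-fold larger in CT101 (adjusted p = 0.027). SARD1, a partner of CBP60G, had 2.03 ± 0.63 and UGT76B1, a glucosyltransferase that inactivates salicylic acid, 4.29 ± 1.32 (adjusted p = 0.046 for both).

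The isochorismate synthase gene ICS1 itself did not pass. It stood at 68.2, 64.5 and 63.8 CPM in C24 controls and 803, 447 and 1256 under ozone, and at 26.5, 32 and 37.4 in CT101 controls and 708, 684 and 1076 under ozone (difference 1.01 ± 0.45, adjusted p = 0.16). The lines differed in controls (-1.03, adjusted p = 0.034) and overlapped under ozone. In the blocked fit ICS1 was called (1.09, adjusted p = 0.026). Without ozone replicate 2 of C24, 1 of 13 members stayed called, EDS5 (adjusted p = 0.019), so the calls of SARD1 and UGT76B1 ended. PBS3 and CBP60G had adjusted p of 0.074 and 0.084 there, while the blocked fit called 7 members. The calls of PBS3 and CBP60G also ended without C24 control replicates 1 or 2, CT101 control replicates 1 or 2, or CT101 ozone replicate 3 (largest adjusted p over the alternatives 0.086 and 0.091).

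Of 18 genes of salicylic acid signalling and output, 3 were called higher and 0 lower (median 0.72), with 3 and 0 without ozone replicate 2 of C24 and 7 and 1 in the blocked fit. All 3 act in immune signalling. PAD4 (AT3G52430) stood at 80.9, 72.3 and 57.6 CPM in C24 controls and 289, 180 and 284 under ozone, and at 27.3, 28.3 and 36.2 in CT101 controls and 227, 268 and 392 under ozone. NDR1 (AT3G20600) averaged 19.7 ± 3.23 CPM (SD, n = 3) in C24 controls and 30 ± 2.37 under ozone, and 7.74 ± 2.34 in CT101 controls and 36.3 ± 6.81 under ozone. Both were lower in CT101 before exposure and overlapped with C24 after it, with differences of 1.43 ± 0.33 (adjusted p = 0.011) and 1.63 ± 0.28 (adjusted p = 0.002). SAG101, a partner of EDS1, was higher in CT101 under ozone (118 to 298 CPM against 57.5 to 113) and had a difference of 2.04 ± 0.44 (adjusted p = 0.0081). In the reference 6.29% of the 50-base stretches of NDR1 occur elsewhere.

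The pathogenesis-related genes PR1, PR2 and PR5, classical outputs of salicylic acid, were lower in every CT101 library than in every C24 library of the same treatment. PR1 stood at 426, 674 and 937 CPM in C24 controls, 441, 725 and 833 in C24 ozone, 12.1, 218 and 240 in CT101 controls and 13.2, 427 and 138 in CT101 ozone libraries. The spread within CT101 was wide, and the line difference of PR1 passed in neither treatment (adjusted p = 0.29 and 0.3). PR5 was lower in CT101 in controls (-1.99, adjusted p = 0.01) and under ozone (-1.77, adjusted p = 0.014), as was PR2 (-2.34 and -2.15, adjusted p = 0.039 for both). The response differences of PR1, PR2 and PR5 were 0.33 ± 1.69, 0.19 ± 1.02 and 0.22 ± 0.70, with adjusted p of 0.94, 0.94 and 0.89.

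Of 24 ethylene genes 3 were called higher and 0 lower (median 0.53), with 2 and 0 without ozone replicate 2 of C24 and 11 and 0 in the blocked fit. ACO4 (AT1G05010), which catalyses the last step of ethylene synthesis, stood at 171, 182 and 151 CPM in C24 controls and 1723, 956 and 1926 under ozone. CT101 had 95.1, 105 and 123 CPM in controls and 3002, 2390 and 2778 under ozone. The order of the lines reversed between control and ozone without overlap (difference 1.46 ± 0.28, adjusted p = 0.0041). CTR1, a kinase that represses ethylene signalling, had a difference of 0.95 ± 0.24 (adjusted p = 0.018, or 0.07 with the 12 libraries alone). EIN3, the transcription factor at the end of the pathway, had 0.56 ± 0.16 (adjusted p = 0.033, or 0.11 without ozone replicate 2 of C24). The EIN3 call also ended without any 1 of C24 control replicates 1 or 2, the CT101 controls, or CT101 ozone replicates 1 or 3. Nor did it hold with the 12 libraries alone (adjusted p = 0.088).

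Of 30 jasmonate genes 6 were called higher and 0 lower (median 0.98), with 2 and 0 without ozone replicate 2 of C24 and 13 and 1 in the blocked fit. AOC3 (AT3G25780), an allene oxide cyclase of jasmonate synthesis, stood at 17, 24.9 and 14.9 CPM in C24 controls and 229, 87.8 and 285 under ozone, against 11.2, 14.4 and 12.4 in CT101 controls and 694, 570 and 1218 under ozone. The CT101 ozone libraries were above every C24 ozone library (difference 2.62 ± 0.58, adjusted p = 0.01). The defensin gene PDF1.2, an output of jasmonate and ethylene together, was at 0.531 to 1.5 CPM in C24 ozone and 6.52 to 14.2 in CT101 ozone libraries. It rose in CT101 (4.68) and was not called in C24 (0.11, adjusted p = 0.91; difference 4.57 ± 0.99, adjusted p = 0.0088). OPCL1 and AOC1 of the synthesis pathway (1.10 ± 0.28 and 1.23 ± 0.37, adjusted p = 0.019 and 0.039), JOX2, which inactivates jasmonate (2.29 ± 0.65, adjusted p = 0.032), and TAT3 (3.90 ± 1.10, adjusted p = 0.033) were the others. The OPCL1 call ended without C24 control replicate 2, C24 ozone replicate 2 (adjusted p = 0.053) or CT101 ozone replicate 3. It also ended with the 12 libraries alone (adjusted p = 0.076).

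Of 26 WRKY transcription factor genes 7 were called higher and 1 lower (median 1.22), with 5 and 1 without ozone replicate 2 of C24 and 12 and 1 in the blocked fit. WRKY25 (AT2G30250) stood at 23.4, 24.3 and 21.2 CPM in C24 controls and 112, 78.7 and 113 under ozone. Levels in CT101 were 7.02, 11.9 and 14.3 CPM in controls and 187, 151 and 266 under ozone. It was below C24 before and above it after exposure in every library (difference 2.05 ± 0.33, adjusted p = 0.0013). WRKY46 (2.43 ± 0.58, adjusted p = 0.015), WRKY8 (2.64 ± 0.59, adjusted p = 0.01) and WRKY54 (1.65 ± 0.40, adjusted p = 0.015) were higher too. WRKY70, which links salicylic acid and jasmonate signalling, had 1.23 ± 0.36 (adjusted p = 0.036), which became 0.1 without ozone replicate 2 of C24. Its call also ended without C24 control replicate 2, CT101 control replicates 1 or 2, or CT101 ozone replicates 1 or 3 (largest adjusted p over the alternatives 0.13). WRKY17, known as a repressor of basal defence, was the lower member. It was at 18.4 to 32.5 CPM in C24 ozone and 14.9 to 21.1 in CT101 ozone libraries and rose less in CT101 (0.61 against 1.64, difference -1.04 ± 0.27, adjusted p = 0.022).

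Receptors and kinases at the cell surface followed. Of 37 cysteine-rich receptor-like kinases 8 were called higher and 1 lower (median 0.49), with 4 and 1 without ozone replicate 2 of C24 and 12 and 4 in the blocked fit. CRK13 (AT4G23210) stood at 14.3, 14.6 and 10.8 CPM in C24 controls and 67.1, 43 and 84 under ozone, and at 4, 4.75 and 5.3 in CT101 controls and 197, 161 and 308 under ozone. The lines changed order without overlap (difference 3.28 ± 0.42, adjusted p = 2.0e-04), and 13.4% of its 50-base stretches occur elsewhere in the reference. CRK4 (AT3G45860) was close to 0 in CT101 controls, at 137 to 194 CPM in C24 controls and 0.24 to 0.496 in CT101 controls. It rose to 1.72 to 3.41 CPM in CT101 and to 221 to 285 in C24, a difference of 2.09 ± 0.47 (adjusted p = 0.011) at levels lower in CT101 by 6.51 on the log2 scale under ozone. CRK21 was the lower member, at 28.6 to 47.1 CPM in C24 ozone and 17.5 to 24.5 in CT101 ozone libraries (-1.34 ± 0.31, adjusted p = 0.011).

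Of 27 genes for MAP kinases and pattern-triggered immunity 5 were called higher and 0 lower (median 0.72), with 3 and 0 without ozone replicate 2 of C24 and 14 and 0 in the blocked fit. BKK1, a co-receptor of pattern receptors (1.86 ± 0.35, adjusted p = 0.0039), was lower in CT101 controls (9.82 to 22.6 CPM against 37.3 to 41.7). The kinase gene BIK1, which those receptors act through, was at 57.2 to 128 CPM in C24 ozone and 145 to 290 in CT101 ozone libraries (1.80 ± 0.42, adjusted p = 0.013, or 0.065 with the 12 libraries alone). The ubiquitin ligase gene PUB23, a repressor of this immunity, was lower in CT101 controls (1.15 to 1.44 CPM against 4.6 to 7.51) and overlapped under ozone (1.73 ± 0.43, adjusted p = 0.017). Its call ended without C24 control replicate 2, CT101 control replicate 1 or CT101 ozone replicate 3, and with the 12 libraries alone. That last fit gave the largest adjusted p over the alternatives, 0.082. BAK1 (0.88 ± 0.26) and MPK6 (0.69 ± 0.20) completed the 5, with adjusted p of 0.038 and 0.037. In the reference 12.0% of the 50-base stretches of BKK1 occur elsewhere.

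Of 33 oxidases, antioxidant genes and markers of reactive oxygen 8 were called higher and 1 lower (median 0.53), with 6 and 1 without ozone replicate 2 of C24 and 12 and 3 in the blocked fit. NADPH oxidases did not move alike. RBOHC (AT5G51060), known for its role in root hairs, stood at 0.407, 0.445 and 0.784 CPM in C24 controls and 14.9, 6.85 and 18.7 under ozone. In CT101 it stood at 0.666, 0.48 and 0.446 CPM in controls and 157, 248 and 318 under ozone. The controls overlapped and the ozone libraries did not (4.19 ± 0.79, adjusted p = 0.0039). RBOHF, at 37.2 to 58.2 CPM in C24 ozone and 19.5 to 32.3 in CT101 ozone libraries, was the lower member (-1.01 ± 0.25, adjusted p = 0.018). RBOHD, the main oxidase of the leaf immune burst, did not pass (0.48 ± 0.28, adjusted p = 0.28). Its levels overlapped in both treatments, at 200 to 378 CPM in C24 ozone and 353 to 557 in CT101 ozone libraries.

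The zinc finger gene ZAT7 (AT3G46090) stood at 8.85, 12.2 and 8.31 CPM in C24 controls and 55.6, 22.6 and 46.1 under ozone, and at 0.311, 2.64 and 2.92 in CT101 controls and 70.7, 84.1 and 161 under ozone. It changed order between the treatments (3.68 ± 0.72, adjusted p = 0.005). NUDT7, a hydrolase that restrains EDS1-dependent defence (2.07 ± 0.45, adjusted p = 0.0089), the mitochondrial stress marker UPOX (2.07 ± 0.47, adjusted p = 0.01) and GR1, a glutathione reductase (0.83 ± 0.19, adjusted p = 0.013), were higher as well. ZAT12, a general marker of oxidative stress, was near the threshold (2.00 ± 0.62, adjusted p = 0.048). It was called in 9 of 21 alternatives and had an adjusted p of 0.1 without ozone replicate 2 of C24. Among the 12 libraries its call held without C24 ozone replicate 3 or without CT101 ozone replicate 2 and ended without any 1 of the other 10.

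Of 24 glutathione S-transferases 5 were called higher and 0 lower (median 1.24), with 3 and 0 without ozone replicate 2 of C24 and 10 and 0 in the blocked fit. These enzymes join glutathione to reactive compounds. GSTF10 stood at 136, 134 and 123 CPM in C24 controls and 380, 212 and 326 under ozone, and at 146, 138 and 160 in CT101 controls and 873, 667 and 967 under ozone. The lines were not called in controls (0.18, adjusted p = 0.56) and lay apart under ozone (1.27 ± 0.25, adjusted p = 0.0042). GSTF3 was lower in CT101 controls, at 23.7 to 42.4 CPM in C24 and 4.93 to 12.1 in CT101, and was not called under ozone (0.77, adjusted p = 0.18; response difference 2.53 ± 0.61, adjusted p = 0.015).

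Of 25 phenylpropanoid genes 10 were called higher and 2 lower (median 0.36), with 8 and 1 without ozone replicate 2 of C24 and 11 and 4 in the blocked fit. The 10 higher genes belong to the general pathway and the branch to lignin: PAL1, PAL2, C4H, 4CL2, HCT, CCOAOMT1, CCR2, CAD5, FAH1 and OMT1. PAL2 (AT3G53260), whose enzyme opens the pathway, stood at 97, 115 and 96.2 CPM in C24 controls and 287, 170 and 334 under ozone. In CT101 levels were 110, 129 and 95.7 CPM in controls and 1264, 937 and 2016 under ozone. The controls overlapped, and the lowest CT101 ozone library was above the highest of C24 (2.30 ± 0.42, adjusted p = 0.0031).

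The next enzyme, C4H (AT2G30490), stood at 127, 144 and 107 CPM in C24 controls and 236, 172 and 240 under ozone, and at 126, 153 and 122 in CT101 controls and 964, 541 and 1267 under ozone (2.01 ± 0.40, adjusted p = 0.0057). OMT1 (AT5G54160), a methyltransferase of the lignin branch, stood at 128, 178 and 121 CPM in C24 controls and 212, 194 and 235 under ozone, and at 140, 139 and 128 in CT101 controls and 689, 492 and 790 under ozone (1.68 ± 0.28, adjusted p = 0.0014). Both repeated the pattern of PAL2. 4CL2, which activates the acids, rose in CT101 (1.95) and was not called in C24 (0.01, adjusted p = 0.99; difference 1.94 ± 0.45, adjusted p = 0.012). CCOAOMT1 rose in CT101 (0.72) and was likewise not called in C24 (-0.10, adjusted p = 0.56; difference 0.82 ± 0.18, adjusted p = 0.01). None of the 10 was called in controls between the lines, and all 10 were higher in CT101 under ozone.

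The 2 lower genes make flavonoids. FLS1, flavonol synthase, stood at 22.8, 16.6 and 22.5 CPM in C24 controls and 9.66, 10.7 and 8.87 under ozone, and at 23.3, 33.8 and 34.7 in CT101 controls and 6.52, 5.05 and 5.19 under ozone. It fell further in CT101 (-2.45 against -1.08, difference -1.37 ± 0.30, adjusted p = 0.0088). TT4, chalcone synthase, which has an overlapping locus on the opposite strand, had -1.18 ± 0.30 (adjusted p = 0.02, or 0.054 without ozone replicate 2 of C24).

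Of 17 genes of tryptophan and camalexin synthesis 4 were called higher and 0 lower (median 0.86), with 2 and 0 without ozone replicate 2 of C24 and 10 and 1 in the blocked fit. TSB1, a subunit of tryptophan synthase, stood at 111, 124 and 108 CPM in C24 controls and 402, 224 and 470 under ozone, against 115, 132 and 116 in CT101 controls and 769, 840 and 1116 under ozone. The lines were called different under ozone and not in controls (response difference 1.24 ± 0.28, adjusted p = 0.011, or 0.07 with the 12 libraries alone). CYP71A12, of indole-derived defence compounds, stood lower in CT101 controls (0.222 to 2.18 CPM against 5.28 to 6.77) and overlapped under ozone (3.03 ± 0.80, adjusted p = 0.024). Its call ended without C24 control replicate 2, C24 ozone replicate 2 (adjusted p = 0.055), CT101 control replicate 1 or CT101 ozone replicate 3. The fit of the 12 libraries alone did not call CYP71A12 (adjusted p = 0.072). Of 23 glucosinolate genes 0 were called higher and 1 lower (median -0.11). None was called without ozone replicate 2 of C24, and the blocked fit called 1 higher and 2 lower. The lower gene was MYB28, a regulator of the aliphatic branch (-0.73 ± 0.23, adjusted p = 0.049, or 0.19 without that library). It was called in 5 of 21 alternatives, and its call ended without any 1 of the 12 libraries other than C24 control replicate 1 or C24 ozone replicate 3. MYB28 was not called with the 12 libraries alone (adjusted p = 0.11).

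Genes of photosynthesis had lower response differences, few of them called. All 38 had a negative response difference and 6 were called lower (median -0.67), with 0 called without ozone replicate 2 of C24 (median -0.60) and 37 in the blocked fit. The ozone response was called lower for all 38 in CT101 and for 23 in C24, where members not called may still have fallen (list median -0.49). RBCS1A stood at 12893, 12089 and 10847 CPM in C24 ozone and 10919, 9913 and 8291 in CT101 ozone libraries, with a difference of -0.58 ± 0.17 (adjusted p = 0.035, or 0.092 without ozone replicate 2 of C24). The plastocyanin gene PETE1 stood at 291, 257 and 288 CPM in C24 controls and 184, 201 and 146 under ozone, against 273, 245 and 247 in CT101 controls and 98.3, 114 and 70.4 under ozone. Its controls overlapped and its ozone libraries did not (-0.78 ± 0.21, adjusted p = 0.027, or 0.084 without that library). The PETE1 call also ended without C24 control replicate 2, C24 ozone replicate 1, CT101 control replicate 1 or CT101 ozone replicate 3. The RBCS1A call ended without any 1 of these, C24 control replicate 3 or CT101 control replicates 2 or 3 (largest adjusted p over the alternatives 0.12). Neither PETE1 nor RBCS1A was called with the 12 libraries alone (adjusted p = 0.075 and 0.12).

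Auxin response genes showed the lowest list median. Of 30 members 0 were called higher and 4 lower (median -0.83), with 0 called without ozone replicate 2 of C24 (median -0.60) and 13 lower in the blocked fit. IAA17, a repressor of auxin response, stood at 86.8, 83.4 and 53.7 CPM in C24 controls and 22.1, 39.3 and 15 under ozone, and at 108, 92.7 and 75 in CT101 controls and 10.8, 12.9 and 7.97 under ozone. The controls overlapped and the ozone libraries did not (-1.57 ± 0.46, adjusted p = 0.037, or 0.15 without ozone replicate 2 of C24). IAA7 of the same family had -0.99 ± 0.30, SAUR66, of a family tied to cell expansion, -1.93 ± 0.55, and SHY2 -1.40 ± 0.44 (adjusted p = 0.041, 0.032 and 0.048). The calls of IAA17 and IAA7 also ended without C24 control replicates 2 or 3, CT101 control replicate 1, or CT101 ozone replicates 1 or 3, IAA17 also without CT101 control replicate 2 and IAA7 without C24 ozone replicate 1. That of SAUR66 ended without C24 control replicate 3, C24 ozone replicate 2 (adjusted p = 0.1), CT101 control replicate 1, or CT101 ozone replicates 2 or 3. Neither IAA17 nor SAUR66 was called with the 12 libraries alone (adjusted p = 0.065 and 0.088).

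Of 29 genes of wall loosening and brassinosteroids 3 were called higher and 1 lower (median -0.35), with 4 and 0 without ozone replicate 2 of C24 and 7 and 9 in the blocked fit. The higher genes encode xyloglucan enzymes, of which XTH22 is known as touch-inducible. XTH23 was at 6.98 to 16.7 CPM in C24 ozone and 32.4 to 77.1 in CT101 ozone libraries (2.91 ± 0.67, adjusted p = 0.012). XTH22 rose in CT101 (3.24) and was not called in C24 (0.15, adjusted p = 0.82; difference 3.09 ± 0.68, adjusted p = 0.0099), with CT101 ozone libraries at 44, 45 and 189 CPM. XTH18 had 4.24 ± 1.19 (adjusted p = 0.032, or 0.071 without ozone replicate 2 of C24), and its call also ended without any 1 control library or CT101 ozone replicate 3. It was not called with the 12 libraries alone (adjusted p = 0.066). EXPA5, an expansin, was lower (-1.39 ± 0.42, adjusted p = 0.041).

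Of 22 guard cell genes 2 were called higher and 0 lower (median -0.07), with 1 and 0 without ozone replicate 2 of C24 and 3 and 3 in the blocked fit. CPK6 (AT2G17290), a calcium-dependent kinase that activates the anion channel SLAC1, stood at 25.1, 24.2 and 21.7 CPM in C24 controls and 91, 47.6 and 84.2 under ozone, and at 10.4, 7.91 and 9.72 in CT101 controls and 97.4, 68.2 and 102 under ozone. The lines differed in controls and overlapped under ozone (1.60 ± 0.33, adjusted p = 0.0066). OST1, the kinase of abscisic acid signalling in guard cells, had 0.65 ± 0.20 (adjusted p = 0.043) and was called in 9 of 21 alternatives. Its call held without C24 control replicate 3 or CT101 ozone replicate 2 and ended without any 1 of the other 10 (adjusted p = 0.096 without ozone replicate 2 of C24, and at most 0.15 over the alternatives). SLAC1 was at 2.4 to 4.44 CPM in C24 ozone and 3.69 to 6.22 in CT101 ozone libraries and did not pass (0.09 ± 0.31, adjusted p = 0.89), and it has an overlapping locus on the opposite strand.

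Of 27 genes of abscisic acid and cold 0 were called higher and 1 lower (median -0.45), and 0 without ozone replicate 2 of C24, against 1 and 5 in the blocked fit. The lower gene was RD29B, a desiccation gene at or below 5.46 CPM in all 12 libraries (-3.14 ± 0.92, adjusted p = 0.037, or 0.074 without that library). Its call also ended without C24 control replicates 1 or 3, C24 ozone replicate 1, CT101 control replicate 1, or CT101 ozone replicates 1 or 3 (largest adjusted p over the alternatives 0.13). The 12 libraries alone gave RD29B an adjusted p of 0.088. Of 22 NAC and senescence genes 5 were called higher and 0 lower (median 0.93), with 3 and 0 without ozone replicate 2 of C24 and 11 and 1 in the blocked fit. Beside DIN11 these were NAC013, NAC062, NAC019 and NYE1, and NAC062 had an adjusted p of 0.061 with the 12 libraries alone. NAC013, a regulator of mitochondrial retrograde signalling, was at 11.6 to 15.9 CPM in C24 ozone and 45.4 to 82.9 in CT101 ozone libraries (1.71 ± 0.31, adjusted p = 0.0029), and has an overlapping locus. NYE1, which starts chlorophyll breakdown, had 0.91 ± 0.24 (adjusted p = 0.025).

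Of 19 heat shock factors and chaperones 1 was higher (median 0.43), HSFA8, which was lower in CT101 controls (3.69 to 6.54 CPM against 14.1 to 19.1) and overlapped under ozone (1.44 ± 0.36, adjusted p = 0.017). Its call ended without CT101 control replicate 1 or CT101 ozone replicate 3, and with the 12 libraries alone (adjusted p = 0.07). The blocked fit called 5 members of the list. None of 14 folding genes of the endoplasmic reticulum was called (median 0.09), where the blocked fit called 2, and all 14 rose in each line. Of 17 clock genes 2 were higher (median -0.28), LUX (2.30 ± 0.48, adjusted p = 0.0072) and ELF3 (0.69 ± 0.22, adjusted p = 0.048), which act in 1 complex in the evening. The blocked fit called 3 higher and 6 lower. The ELF3 call held in 6 of 21 alternatives and ended without any 1 library except C24 control replicate 1 or C24 ozone replicate 3, and ELF3 has an overlapping locus. Of 13 flowering genes 1 was higher (median -0.15), TEM1, a repressor of flowering (1.18 ± 0.34, adjusted p = 0.034, or 0.095 without ozone replicate 2 of C24), called in 12 of 21 alternatives. The TEM1 call ended without C24 control replicates 2 or 3, either of C24 ozone replicates 2 or 3, CT101 control replicates 2 or 3, or CT101 ozone replicate 1. FLC, the main flowering repressor of winter accessions, was at 27.3 to 37.9 CPM in all 12 libraries and did not pass (0.05 ± 0.17, adjusted p = 0.9).

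The same difference against Te is given side by side, and it shares the CT101 libraries with the one against C24. CT101 minus Te was called for 66 genes (0.321%), 32 higher and 34 lower. RBOHC rose by 8.64 in Te, 8.80 in CT101 and 4.62 in C24, and PAL2 by 3.56, 3.66 and 1.36. FAMT rose by 5.49 in Te and 5.28 in CT101 and was not called in C24 (0.90, adjusted p = 0.1). DIN11 stood at 0.195, 0.765 and 0.259 CPM in Te controls and 135, 371 and 273 in Te ozone libraries. CBP60G rose by 5.94 in Te, 4.39 in CT101 and 2.66 in C24. OST1 was called in CT101 minus Te as well (0.95, adjusted p = 0.041).

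Called genes lay on all chromosomes, at 9.82%, 10.3%, 10.1%, 10.1% and 8.63% of the genes tested on chromosomes 1 to 5. Line differences in controls were called for between 10.8% (chromosome 5) and 20.5% (chromosome 2). Among windows of 1 Mb the highest shares were 12 of 53 genes (22.6%) between 11 and 12 Mb of chromosome 3 and 28 of 142 (19.7%) between 21 and 22 Mb of chromosome 1, where AT1G57630 and AT1G57650 lie.

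**Figure D5:**
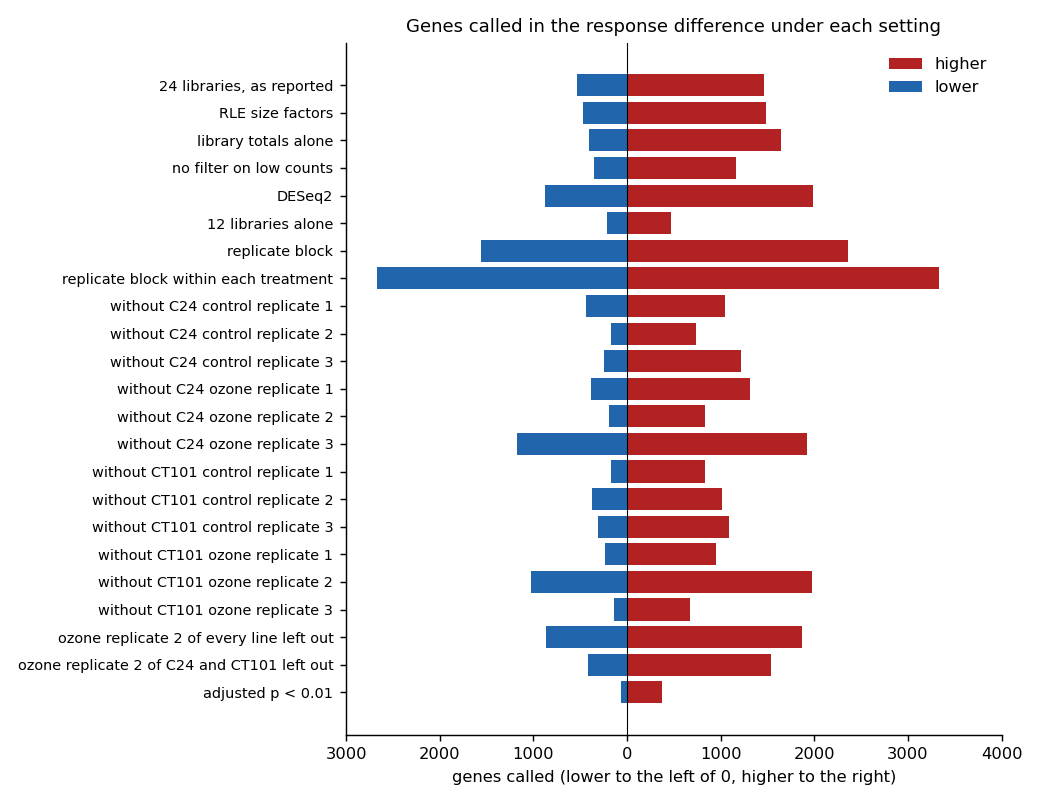
Number of genes called higher (right) and lower (left) in the response difference under each setting. Counts ran from 377 higher and 68 lower at an adjusted p under 0.01 to 3336 and 2675 with the replicate block within each treatment, and every setting called more genes higher than lower.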

How the data were processed

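Per the labels, libraries of whole-rosette RNA were made with the TruSeq RNA v2 kit. The deposited values are read counts per locus, 1 table per library, made by the authors with FastQC, Bowtie2, SAMtools and HTSeq on TAIR10, per the submitters' processing notes. Versions and strand setting are not given in the sources used here. TAIR10 is the Col-0 genome, so loci that diverge in another line can lose reads, and this was not tested. Coordinates matched the reference annotation, TAIR10.1, at the start or end of 17955 of 31912 shared nuclear loci. Of 32678 loci 279 belong to organelles and had 0 counts in all 24 libraries.

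The test used edgeR 4.0.16 under R 4.3.3. Genes were kept by filterByExpr (minimum count 10, minimum total 15), scaled by TMM, and a robust quasi-likelihood model was fitted, 1 mean for each of 8 groups over 24 libraries. Contrasts were 2-sided, with Benjamini-Hochberg adjustment over 20554 genes. SE is the absolute log2 change divided by the square root of F. Levels are TMM-scaled CPM, in which 1 count at the median depth of 18325341 equals 0.0546. CPM is not divided by gene length, so levels of different genes are not compared. The p-values measure the spread between pools of rosettes. The comparison, lists and members were chosen with earlier results of these data known. Genes named were the 12 with the largest called difference in each direction (mean log2 CPM at least 1), up to 3 called members per list with the smallest adjusted p, and ICS1, PR1, PR2, PR5, WRKY70, RBOHD, ZAT12, SLAC1 and FLC. Of these 85 not all are printed. Other called list members were named after their values were seen.

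Pairing by replicate number was checked on residuals: in pairs of equal treatment all correlations were at least 0.182. Across line and treatment they ran from -0.0141 to 0.227, and across treatments within a line from 0.103 to 0.284. These ranges overlap that of equal treatment. Alternatives were RLE factors, library totals, no filter, DESeq2 1.42.0, the 12 libraries alone, both blocks, a stricter threshold, omission of each library, and omission of ozone replicate 2 in every line or, added after seeing the data, in C24 and CT101. Figures used Python 3.11.15 and matplotlib 3.10.9.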

Additional observations from a re-analysis of the deposited data

Results flagged for a closer look

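Effects of ozone that differed between lines by the test of the difference itself were found for 1458 genes higher and 537 genes lower in CT101 than in C24. They were found for 32 genes higher and 34 lower in CT101 than in Te. By construction of the comparison every called gene meets this criterion, and no group had enough libraries for a check of single outlying values.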

How the results depend on the processing

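Against 1458 higher and 537 lower calls, the 12 libraries alone gave 474 and 210, an adjusted p under 0.01 gave 377 and 68, the replicate block gave 2357 and 1557 and the replicate block within each treatment 3336 and 2675. RLE factors (1486 and 475) and library totals alone (1641 and 403) stayed within 1.5 times. Lower calls became 349 with no filter, 876 with DESeq2 and 867 without ozone replicate 2 of every line. Omission of each library gave 673 to 1971 higher and 143 to 1173 lower. Higher calls moved by over 1.5 times without C24 control replicate 2 (731), C24 ozone replicate 2 (831), CT101 control replicate 1 (831), CT101 ozone replicate 1 (955) or CT101 ozone replicate 3 (673). Lower calls did so without these (175, 194, 166, 237 and 143), without C24 control replicate 3 (244), CT101 control replicate 3 (313), C24 ozone replicate 3 (1173) or CT101 ozone replicate 2 (1027). In each alternative all of these calls that could be fitted kept their direction. This was nearly fixed in advance, since the calls were selected in the same libraries. Of 78 called named genes 46 were called in all 21 alternatives fitted at the same threshold.

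Reversed values were found only for genes and a list that were not called. Over omission of each library PR1 ran from -1.04 to 0.86, PR2 from -0.28 to 0.58, PR5 from -0.18 to 0.49, SLAC1 from -0.16 to 0.35 and FLC from -0.02 to 0.08. Without ozone replicate 2 in every line, and likewise in C24 and CT101, PR1 was -0.95, PR2 -0.08 and PR5 -0.40. The list of endoplasmic reticulum folding had a median of -0.03 without C24 ozone replicate 2. The cause of these changes was not tested. Depth limits genes at a few counts per library, such as DIN11 and AT1G57630 in controls.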
